A study of Mus musculus with 2 samples.

Results

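The genes described here are the cytochrome P450 genes of families 1 to 4, measured in kidneys that lack *Cnnm2* and in control kidneys. Members were chosen by name alone: every gene probe of the arrays whose gene name is Cyp, then 1, 2, 3 or 4, then a letter. This gave 78 of the 31821 gene names on the arrays, carried by 100 probes, with 3 genes in family 1, 47 in family 2, 8 in family 3 and 20 in family 4. Total RNA from whole kidneys of 2-month-old knockout mice (*Cnnm2*fl/fl;*Six2-Cre*) was hybridized together with that of control mice of the same age (*Cnnm2*+/+;*Six2-Cre*) on 2 two-colour arrays. On array 1 the knockout was labelled with Cy5 and the control with Cy3, and on array 2 the dyes were exchanged. Both groups carry *Six2-Cre*, in which the *Six2* promoter drives Cre in the progenitors of nephron epithelium in the embryonic kidney, so the collecting duct, vessels and blood cells of the sampled organ do not derive from the targeted cells. By the methods, mice of both sexes were used in the study and were matched for sex and age within an experiment. The sex of the mice behind the arrays, how many there were, and whether both arrays carry the same RNA are given neither by the labels nor by the methods, so the 2 arrays count as a single replicate (n = 1 per genotype). No difference between the genotypes has a replicate check, and an SD given below is the spread of the 2 arrays only, unless it is said to be across genes.

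Cytochrome P450 enzymes are heme proteins of the endoplasmic reticulum and mitochondria that insert an oxygen atom into their substrates, with electrons that the microsomal members receive from the reductase Por. Families 1 to 3 oxidize drugs, solvents, steroids and other lipids and are controlled by ligand sensors such as Ahr, Nr1i2 (PXR) and Nr1i3 (CAR), while enzymes of family 4 mostly hydroxylate the far end of fatty acids and include targets of the receptor Ppara. In the kidney these genes are active mainly in the proximal tubule, where Cyp2c and Cyp2j enzymes turn arachidonic acid into epoxides and Cyp4a enzymes turn it into hydroxy acids that act on vessels and salt transport.

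The ratios of most of these genes, averaged over both dye orientations, lay close to 1. A gene was taken as measured where its brightest probe was well above background, as called by the scanner software, on both arrays in at least 1 and the same genotype, which held for 52 of the 78 genes (66.7%, beside 61.9% of all gene names). Every ratio is given as the log2 ratio of processed signals, knockout over control, and a gene was counted as changed where the mean of both arrays was at least 2-fold in size and both arrays had the same direction. Of the 52 measured P450 genes, 0 were counted as higher in the knockout, beside 0.315% of the 19708 measured genes, and 0 as lower, beside 0.284% (either direction: 0 of 52, beside 0.599%). Counts of 0 are near these background shares and are no result about the P450 genes by themselves. The mean log2 ratio was within 0.25 of 0 for 44 genes and within 0.5 for 50, and in 39 of the 52 genes each array was within 0.5. Shares over all genes for the counts of 44 and 39 are not given here. Those beyond 0.5 were *Cyp2b10* and *Cyp2c54* (3.85% of the measured P450 genes, beside 3.43% of all measured genes). Across genes, the SD of the mean log2 ratios was 0.22 for the P450 genes and 0.23 for all measured genes. Ratios this close to 1 are therefore no result about the P450 genes by themselves. The median of the mean log2 ratios of the 52 genes was 0.10. Taken by array, the median was -0.00 on array 1 and 0.11 on array 2, and the SD of these array medians was 0.08. The median of all measured genes was -0.01, with 0.01 on array 1 and -0.03 on array 2.

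**Figure D1:**
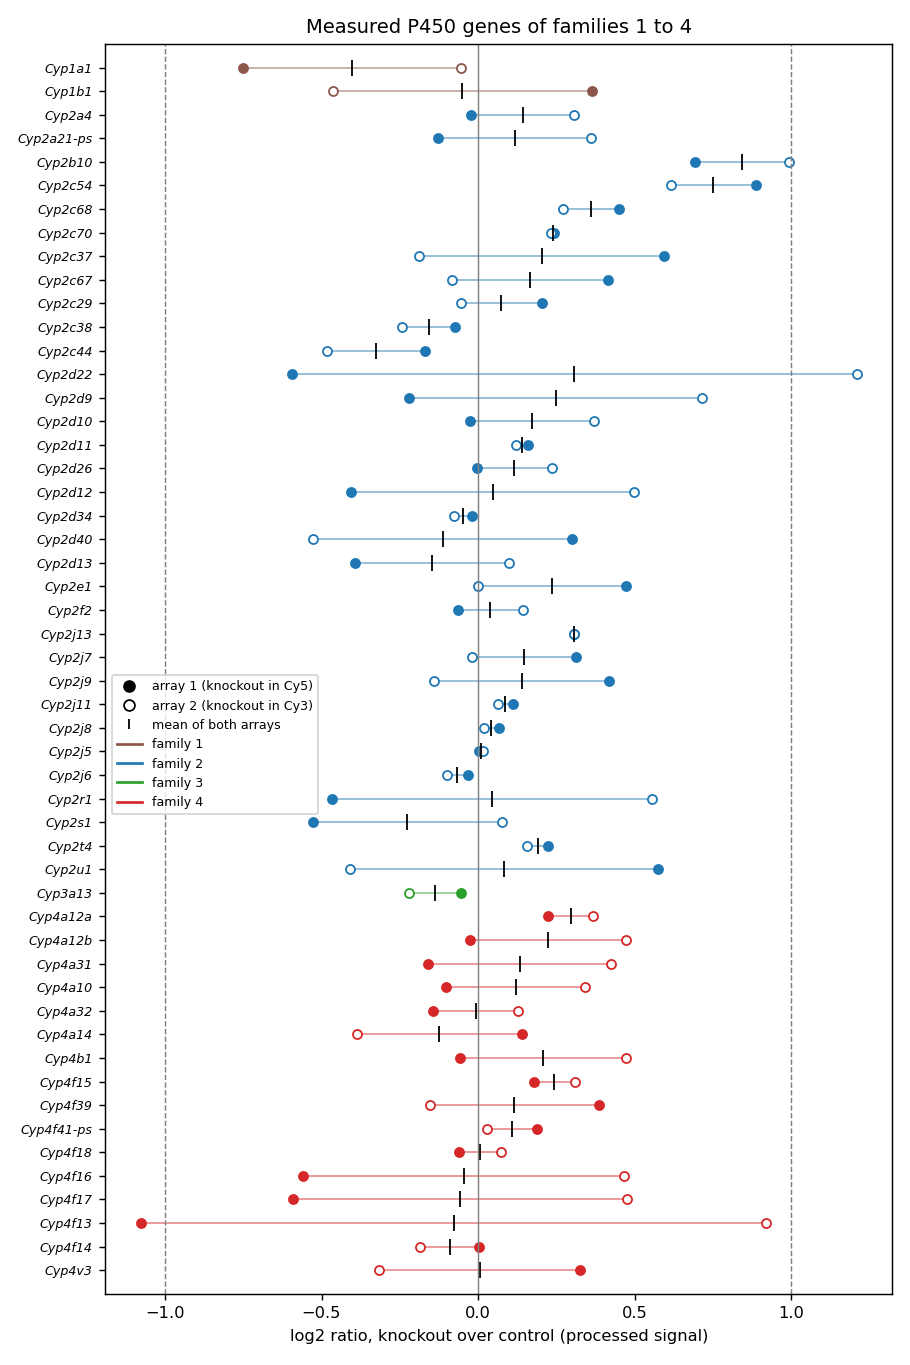
Log2 ratio of knockout over control (x axis) for each of the 52 measured P450 genes of families 1 to 4 (rows, coloured by family). Filled points are array 1 (knockout in Cy5), open points array 2 (knockout in Cy3) and black ticks their mean, and dashed lines mark a 2-fold change. All 52 means lie inside the dashed lines, *Cyp2b10* at 0.84 is the farthest from 0, and in 32 genes the arrays lie on opposite sides of 0.

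The targeted gene checks the labels. *Cnnm2*, which encodes a membrane protein of magnesium transport, read -2.88 on the first array and -2.46 on the second, lower in the channel labelled knockout with either dye. The labels do not say which exons the floxed allele removes, so how the probe lies relative to the deletion was not checked. Each array holds 43020 gene spots, of which 141 and 175 were left out as marked by the software. Between 62.6% and 68% of spots were well above background in each channel, with 0 saturated. The tissue label was checked by markers of the proximal tubule: all 14 were measured, with 0 counted as changed and a median log2 ratio of -0.01, and their signals summed to 625526 (knockout) and 608373 (control) on array 1, and to 505366 and 514877 on array 2. Because whole kidneys were sampled, fewer cells of a type and less RNA per cell cannot be told apart in any value below.

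*Cyp2b10*, the classic target of the sensor CAR in mouse liver, had the highest mean ratio. Its log2 signal was 7.50 for the knockout and 6.81 for the control on array 1, and 7.20 and 6.21 on array 2. Both knockout values lay above both control values, in both dye orientations. The log2 ratios were 0.69 and 0.99, with a mean of 0.84 ± 0.21 (SD of 2 arrays), short of the 2-fold limit on each array. With another background correction (normexp, then loess) the mean was 0.36, in the same direction. *Cyp2b10* was the measured gene of the 5 in the Cyp2b subfamily, since *Cyp2b9*, *Cyp2b13*, *Cyp2b19* and *Cyp2b23* did not reach the background limit, so the value stands for 1 gene and not for the subfamily. *Nr1i3*, which encodes CAR, had ratios of opposite direction on the arrays, -0.60 on array 1 and 1.32 on array 2, and *Nr1i2*, which encodes PXR, had -0.25 and -0.18.

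The Cyp2c subfamily, which holds arachidonic acid epoxygenases, was measured in 8 of 13 genes and had the widest spread of any subfamily, from -0.33 to 0.75, with a median of 0.18. *Cyp2c54* had the highest value. Its log2 signal was 4.53 for the knockout and 3.64 for the control on array 1, and 4.15 and 3.54 on array 2. Both knockout values lay above both control values, and the ratios of 0.89 and 0.62 had a mean of 0.75 ± 0.19 (SD of 2 arrays). These signals are near the background limit: the control was not well above background on array 1. The mean was 0.05 with normexp and loess, 0.14 with no background correction and 0.81 with background-subtracted signals. For a probe this dim, the added offset and background left in the signal both bring the ratio near 0 in advance. *Cyp2c54* has 3 probes, of which only this one was measured. A probe that overlaps it was not well above background in either genotype on both arrays and gave log2 ratios of -0.02 and 0.12. The overlapping probes are shown 5′ to 3′ with their 42 shared bases in capitals, because probes that share most of their bases differed in whether they were well above background. The measured probe lies at chr19:40144659-40144718 (mm9, minus strand), and the other spans chr19:40122119-40144700 on the same strand, a distance far longer than the probe.
Cyp2c54, measured probe: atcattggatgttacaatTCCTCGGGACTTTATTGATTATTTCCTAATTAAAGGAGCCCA
Cyp2c54, overlapping probe: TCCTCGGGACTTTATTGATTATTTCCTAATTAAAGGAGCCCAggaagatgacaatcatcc

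*Cyp2c44*, which RefSeq lists as *Cyp2c23* and which encodes an arachidonic acid epoxygenase of the kidney, had the lowest mean ratio in family 2. On the log2 scale, its signal was 12.04 for the knockout and 12.21 for the control on array 1, and 11.69 and 12.17 on array 2. Both knockout values lay below both control values. The log2 ratios were -0.17 and -0.48, with a mean of -0.33 ± 0.22 (SD of 2 arrays).

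*Cyp2c68* differed in the other direction. It had a log2 signal of 8.57 in the knockout and 8.13 in the control on array 1, and 8.37 and 8.10 on array 2. Both knockout values were above both control values, with ratios of 0.45 and 0.27 and a mean of 0.36 ± 0.13 (SD of 2 arrays). A probe named for *Cyp2c67* is identical to the *Cyp2c68* probe at 55 of 59 aligned bases and had a mean log2 ratio of 0.30, so the arrays may not read these neighbouring genes apart. *Cyp2c38* had -0.07 and -0.24, a mean of -0.16 that was -0.02 with normexp and loess and -0.12 with background-subtracted signals. The remaining measured Cyp2c genes, *Cyp2c29*, *Cyp2c37*, *Cyp2c67* and *Cyp2c70*, had means between 0.07 and 0.24. Among these, only *Cyp2c70* had the same direction on both arrays (0.24 and 0.23).

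The Cyp2j subfamily, in which *Cyp2j5* encodes an arachidonic acid epoxygenase of the proximal tubule, was measured in all 7 genes. Its means ranged from -0.07 (*Cyp2j6*) to 0.31 (*Cyp2j13*), with a median of 0.09, and the ratios of the arrays differed by a median of 0.05, beside 0.42 for all measured genes. *Cyp2j13*, the highest of them, had a log2 signal of 12.98 in the knockout and 12.68 in the control on array 1, and 13.00 and 12.69 on array 2. The knockout was above the control by the same 0.31 in both orientations. Its other 2 probes, also measured, had means of 0.17 and 0.16, again above 0. By array, however, they read 0.29 and 0.04, and 0.03 and 0.29. Neither of these probes thus repeated an equal difference in both orientations. *Cyp2j5* had log2 signals of 9.78 and 9.78 on array 1 and 9.23 and 9.21 on array 2, with a mean ratio of 0.01. The levels of this epoxygenase gene in the genotypes were therefore apart by less than the 2 arrays of one genotype were.

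*Cyp2e1*, which oxidizes ethanol and small solvents, had a log2 signal of 17.10 in the knockout and 16.63 in the control on array 1, and 16.64 in each on array 2. A difference was thus seen in one orientation and not in the other, with ratios of 0.47 and 0.00. The second probe of the gene had 0.11 and 0.34, and the means of both probes were close, 0.24 and 0.22. *Cyp2a4*, a testosterone hydroxylase, had -0.02 and 0.31, and *Cyp2a21-ps*, a related pseudogene, -0.13 and 0.36. Their probes are identical at 52 of 56 aligned bases and may not read these sequences apart, which was not tested.

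The Cyp2d subfamily, the mouse counterparts of the human drug-oxidizing enzyme CYP2D6, was measured in all 9 genes, with a median of 0.12. Its means ranged from -0.15 in *Cyp2d13*, whose arrays read -0.39 and 0.10, to 0.31 in *Cyp2d22*. *Cyp2d22* had a log2 signal of 9.37 in the knockout and 9.96 in the control on array 1, and 10.36 and 9.15 on array 2. The genotypes changed order with the dyes: the Cy3 channel was the brighter one on both arrays. The ratios were -0.59 and 1.21, with an SD of 1.28 around a mean of 0.31. By contrast, *Cyp2d11* (0.16 and 0.12) and *Cyp2d26* (-0.00 and 0.24) had arrays within 0.25 of each other. *Cyp2d9*, a testosterone hydroxylase studied in male liver, had -0.22 and 0.72.

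Of the other genes of family 2, *Cyp2r1*, which hydroxylates vitamin D, had -0.47 and 0.56, and *Cyp2f2*, known for the oxidation of naphthalene in the airway, had -0.07 and 0.14. *Cyp2s1* had a log2 signal of 10.99 in the knockout and 11.52 in the control on array 1, and 11.07 and 10.99 on array 2. It was lower in the knockout on the first array alone, with ratios of -0.53 and 0.08 and a mean of -0.23 ± 0.43 (SD of 2 arrays). *Cyp2t4* had 0.22 and 0.16.

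In family 1, whose enzymes oxidize aromatic hydrocarbons and are induced through Ahr, 2 of 3 genes were measured. *Cyp1a1* had the lowest mean of all 52 genes. On the log2 scale its signal was 5.19 for the knockout and 5.95 for the control on array 1, and 5.11 and 5.17 on array 2. The control of array 1 stood above the other channels, which were within 0.1 of each other. The ratios were -0.75 and -0.06, with a mean of -0.40 ± 0.49 (SD of 2 arrays). The mean was -0.11 with normexp and loess and -0.37 with background-subtracted signals. *Cyp1b1*, which also oxidizes estradiol, had 0.36 and -0.46, a mean of -0.05. *Cyp1a2*, a gene mainly of the liver, was well above background only in the Cy5 channel of each array, which held the knockout on array 1 and the control on array 2, and was therefore not measured.

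Family 3, which holds the main steroid and drug oxidases of the liver, was mostly below the background limit, and *Cyp3a13* was the measured gene among 8. It had a log2 signal of 4.75 in the knockout and 4.81 in the control on array 1, and 4.75 and 4.97 on array 2. The knockout was lower by a little on each array, with ratios of -0.05 and -0.22 and a mean of -0.14 ± 0.12 (SD of 2 arrays). A second measured probe had 0.73 and -2.51, a mean of -0.89, and the median over both probes was -0.52, so that the size for this gene depends on the probe. For the brightest probe the mean was -0.01 with normexp and loess and -0.10 with background-subtracted signals. Of the 7 genes that were not measured, *Cyp3a11* and *Cyp3a59* passed the limit in the knockout channel of array 1 alone, and *Cyp3a16*, *Cyp3a25*, *Cyp3a41b*, *Cyp3a44* and *Cyp3a57* in no channel.

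Family 4 had a narrower range of means than family 2, from -0.12 to 0.30 over 16 of 20 genes, with a median of 0.06. The family median was -0.04 on array 1 and 0.33 on array 2. In 3 of the 16 genes both arrays were above 0, in 0 both were below, and in the other 13 the direction changed with the dyes. Over all measured genes the direction changed in 14250 of 19708, so the count of 13 is not read as a trait of the family. *Cyp4a12a*, which makes a vasoconstrictor hydroxy acid from arachidonic acid and is known as a gene of male kidneys, had a log2 signal of 13.16 in the knockout and 12.94 in the control on array 1, and 13.28 and 12.91 on array 2. Both knockout values were above both control values, with ratios of 0.22 and 0.37 and a mean of 0.30 ± 0.10 (SD of 2 arrays). The near copy *Cyp4a12b* had -0.03 and 0.47. *Cyp4a14*, known as a gene of female kidneys and a Ppara target, had a log2 signal of 13.57 in the knockout and 13.43 in the control on array 1, and 12.93 and 13.32 on array 2. Its ratios of 0.14 and -0.39 had opposite signs.

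*Cyp4a10*, the Ppara target that hydroxylates fatty acids, had a log2 signal of 15.06 in the knockout and 15.16 in the control on array 1, and 15.16 and 14.82 on array 2. *Cyp4a31* had 15.07 and 15.23 on array 1, and 15.18 and 14.76 on array 2. On each array the genes moved alike, with ratios of -0.10 and 0.34 for *Cyp4a10* and of -0.16 and 0.42 for *Cyp4a31*. Their brightest probes share 44 of 47 aligned bases. A further pair of probes, at chr4:115198463-115198522 for *Cyp4a10* and at chr4:115243923-115243982 for *Cyp4a31* (mm9, plus strand), differs at 6 of 60 bases, and their mean ratios were 0.18 and 0.18. They are shown 5′ to 3′ with the differing bases in capitals, because probes this alike may not read the transcripts apart, and the like ratios of these genes are then not separate observations.
Cyp4a10: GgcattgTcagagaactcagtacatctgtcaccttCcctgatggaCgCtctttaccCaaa
Cyp4a31: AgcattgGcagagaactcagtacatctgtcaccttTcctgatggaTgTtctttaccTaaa

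*Cyp4b1*, which oxidizes medium-chain fatty acids and some protoxins, had a log2 signal of 15.92 in the knockout and 15.98 in the control on array 1, and 15.92 and 15.45 on array 2, with ratios of -0.06 and 0.47. The Cyp4f subfamily, whose enzymes hydroxylate leukotrienes, was measured in 8 of 9 genes, with means between -0.09 and 0.24 and a median of -0.02. *Cyp4f13* had a log2 signal of 9.62 in the knockout and 10.70 in the control on array 1, and 10.41 and 9.49 on array 2. As in *Cyp2d22*, the Cy3 channel was the brighter on both arrays, and the ratios of -1.08 and 0.92 nearly cancelled, to a mean of -0.08. *Cyp4f16* (-0.56 and 0.47) and *Cyp4f17* (-0.59 and 0.48) had the same order of channels. *Cyp4f15* was above 0 on both arrays, at 0.18 and 0.31. The control of *Cyp4f39* was not well above background on array 1.

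In 32 of the 52 genes the arrays had opposite directions, beside 14250 of the 19708 measured genes, so this is no trait of the P450 genes. What set the opposite directions was not tested. In 20 of the 52 genes (38.5%) both arrays had the same direction, 14 higher and 6 lower in the knockout, beside 27.7% of all measured genes (12.1% higher and 15.6% lower). Among genes with a mean log2 signal of at least 9, the count was 10 of 31, beside 25.3%. Direction was taken from the sign alone, whatever the size. The 14 therefore include *Cyp2e1* (0.4723 and 0.0008) and *Cyp2j5* (0.0033 and 0.0143). In the other 32 P450 genes the same dye was the brighter on both arrays, Cy3 in 20 and Cy5 in 12, while over all 19708 measured genes Cy5 led, with 7637 genes against 6613 for Cy3. Across the 52 genes the ratios of array 1 and array 2 had a Pearson's r of -0.35 and a Spearman's rho of -0.38, and across all 19708 measured genes -0.51 and -0.56. These describe genes within 1 pair of arrays, which share slide and scan, and genes are not independent replicates. The mean exceeded the SD between arrays in 17 genes (32.7%, beside 20.7%). Arrays at least 2 apart on the log2 scale were found for 0 of the 52, beside 2.54%, and *Cyp2d22* and *Cyp4f13* differed by at least 2-fold between the genotypes on one array (3.85%, beside 6.37%). No test was made of any of these shares.

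**Figure D2:**
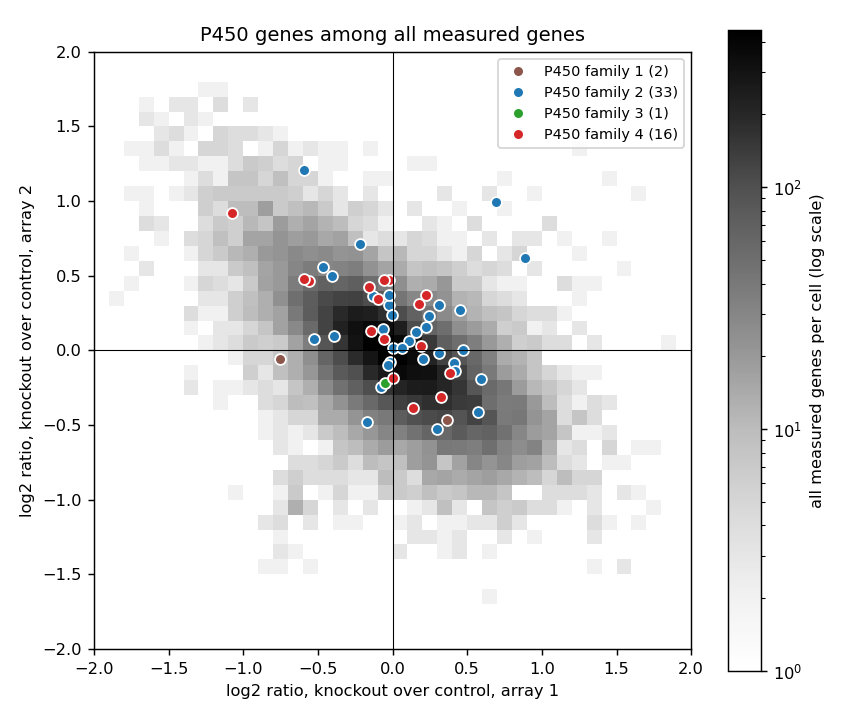
Log2 ratio of knockout over control on array 1 (x axis) and array 2 (y axis) for the 52 measured P450 genes, coloured by family, over all measured genes in grey (shade: genes per cell, log scale, with 126 genes outside the plotted range). The cloud runs from upper left to lower right, where the sign follows the dye, and *Cyp2b10* and *Cyp2c54* stand in the upper right at 0.69 and 0.99 and at 0.89 and 0.62.

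In 18 P450 genes the arrays carry more than 1 probe, and in 12 of these at least 2 probes were measured. Mean ratios of the probes lay within 0.5 of each other in all of these but *Cyp3a13*, where they were 0.76 apart. In 5 genes the means had opposite signs: *Cyp2d34* (-0.05 and 0.23), *Cyp2j6* (-0.07 and 0.05), *Cyp2r1* (-0.09 and 0.04), *Cyp2u1* (-0.34 and 0.08) and *Cyp4f18* (-0.04 and 0.01). Most of these means are near 0, where a sign says little. The share of such genes over the whole array is not given here. One probe of *Cyp4a31* read -0.91 on array 1 and 1.55 on array 2, while the other probes of that gene stayed between -0.16 and 0.52.

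**Figure D3:**
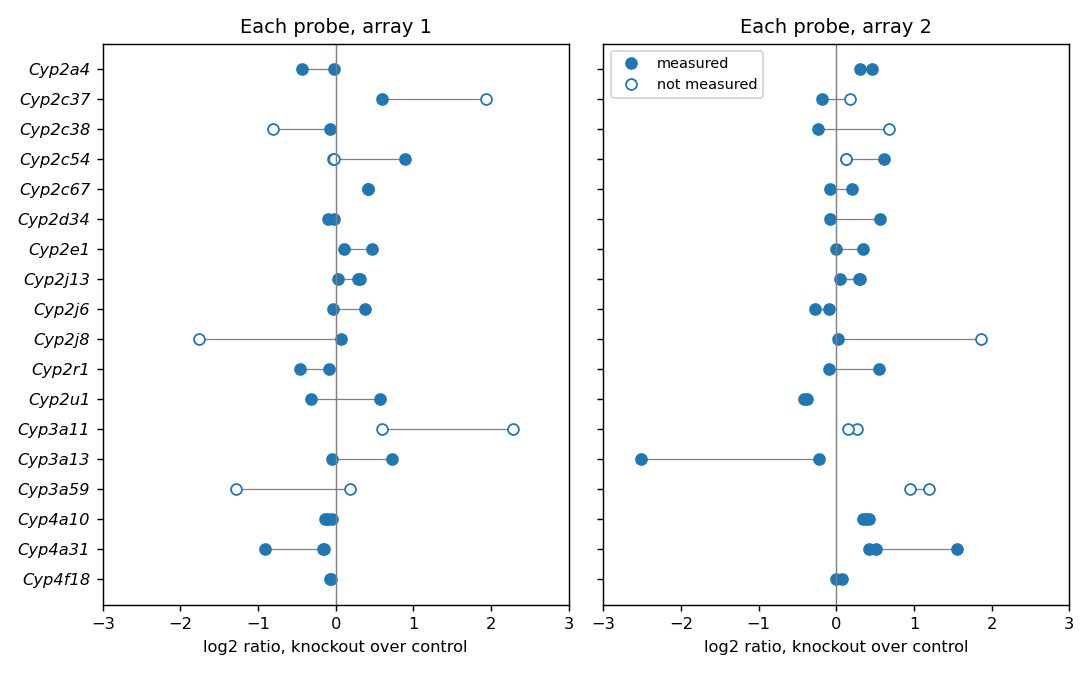
Log2 ratio of knockout over control (x axis) for every probe of the 18 P450 genes with more than 1 probe (rows), on array 1 (left) and array 2 (right). Filled points are measured probes and open points probes that were not, and the widest gap between measured probes is that of *Cyp3a13* on array 2, at -0.22 and -2.51.

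*Cyp2u1*, a hydroxylase of long-chain fatty acids, was read differently by its probes. Its brightest probe (chr3:130996343-130996402, mm9, minus strand) consists in large part of a run of 16 GT units, and bases 11 to 40 are printed 5′ to 3′ with the repeat in capitals. The other probe (chr3:131000939-131000998, minus strand) has no such run and is printed whole.
Cyp2u1, bases 11 to 40 of the brightest probe: tgGTGTGTGTGTGTGTGTGTGTGTGTGTGT
Cyp2u1, other probe: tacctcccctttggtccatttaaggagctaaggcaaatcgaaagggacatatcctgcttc

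The repeat probe had log2 signals of 15.17 in the knockout and 14.59 in the control on array 1, and 14.41 and 14.82 on array 2, that is, 0.57 and -0.41. Cy5 was the brighter dye on both arrays. The same reading came from 50 probes with at least 10 GT units named for 50 other genes: all 50 were measured, and all 50 were above 0 on array 1 (0.47 to 0.70, median 0.56) and below 0 on array 2 (-0.59 to -0.30, median -0.43). The *Cyp2u1* probe without the repeat read -0.32 and -0.37, a mean of -0.34 ± 0.04 (SD of 2 arrays), and was well above background in the control on both arrays but not in the knockout on both. With that probe in its place, *Cyp2u1* would be among the lowest of the P450 genes, and the median of the 52 genes stayed at 0.10. What the repeat probes bind was not tested.

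**Figure D4:**
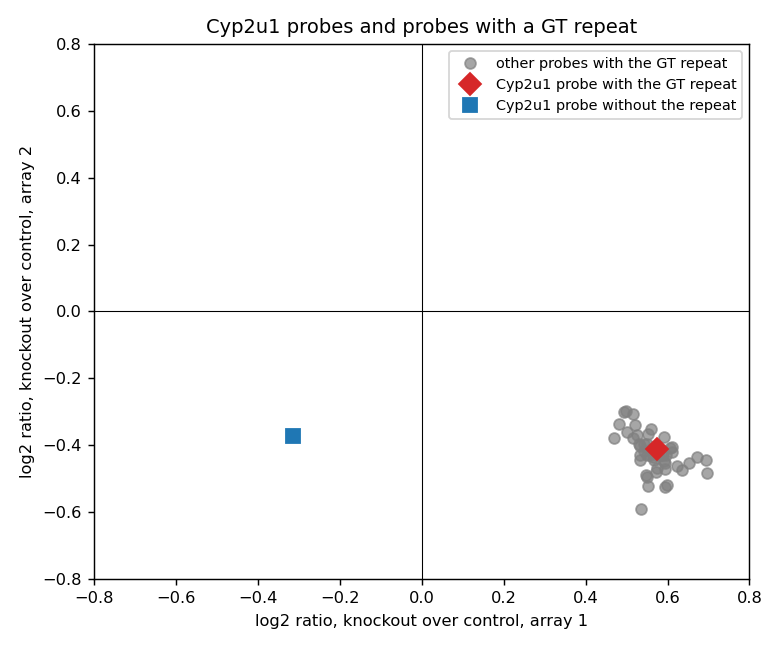
Log2 ratio of knockout over control on array 1 (x axis) and array 2 (y axis) for the *Cyp2u1* probe with the GT repeat (red), its probe without the repeat (blue) and 50 probes of other genes with at least 10 GT units (grey). The red point at 0.57 and -0.41 lies among the grey points, and the blue point at -0.32 and -0.37 lies apart from them.

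The 26 genes that were not measured were *Cyp1a2*, *Cyp2a12*, *Cyp2a22*, *Cyp2ab1*, *Cyp2b9*, *Cyp2b13*, *Cyp2b19*, *Cyp2b23*, *Cyp2c39*, *Cyp2c50*, *Cyp2c55*, *Cyp2c65*, *Cyp2c66*, *Cyp2g1*, *Cyp2w1*, 7 genes of Cyp3a, *Cyp4a29*, *Cyp4a30b*, *Cyp4f40* and *Cyp4x1*. Of these, 22 were not well above background in either genotype on either array. The remaining ones were *Cyp1a2*, *Cyp2b13*, *Cyp3a11* and *Cyp3a59*, each above it in some Cy5 channel only. No ratio is read from any of them.

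Among genes that supply or control the P450 enzymes, 1 was counted as changed. Of 15 measured genes of electron supply and heme, 0 were counted as higher and 0 as lower, with a median of 0.01, and the reductase *Por* had 0.14 and 0.31. Of 21 sensors and nuclear receptors, 1 was counted as higher, beside 0.315% of all measured genes, and 0 as lower, beside 0.284%. The median was -0.05. The gene counted as higher was *Ahrr*, the repressor of Ahr signalling and itself a target of Ahr. *Ahrr* is dim, with a mean log2 signal of 4.10, and its ratio under another background correction is not given here. It had a log2 signal of 4.95 in the knockout and 3.62 in the control on array 1, and 4.30 and 3.55 on array 2, with the control of array 1 not well above background. The ratios were 1.33 and 0.75, while *Ahr* itself had 0.16 and 0.00 and the Ahr target *Cyp1a1* lay on the other side of 0. Of 16 Ppara targets outside the P450 genes and of 11 measured genes of arachidonic acid handling, 0 were counted as changed, with medians of 0.05 and -0.01. Among the former, *Angptl4* had 0.48 and 0.53, and *Acot2* had the widest gap, with -3.70 and 2.32. Of 15 conjugating enzymes and of 14 clock genes, 0 were counted as changed, with medians of -0.05 and -0.09.

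P450 genes outside families 1 to 4 serve mainly steroids, bile acids, retinoic acid and vitamin D, and 11 of 18 were measured, with 0 counted as changed and a median of 0.09. *Cyp26b1*, which breaks down retinoic acid, had a log2 signal of 9.72 in the knockout and 10.53 in the control on array 1, and 9.27 and 10.23 on array 2. Both knockout values were below both control values, with ratios of -0.81 and -0.96 and a mean of -0.88 ± 0.11 (SD of 2 arrays). *Cyp24a1*, which breaks down active vitamin D, had 1.07 and 0.04. *Cyp7b1*, an oxysterol hydroxylase known to be higher in male kidneys, had 0.30 and 0.21.

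Several of these P450 genes are known to differ between male and female kidneys, so other genes with such a known difference are given beside them. Of the 3 male-biased and 2 female-biased genes measured, 0 were counted as changed. *Slco1a1* (0.58 and 0.31) and *Odc1* (0.35 and 0.50), higher in male kidneys, were above 0 on both arrays, while *Kap* (-0.10 and -0.10) was not. *Slc7a12* (-1.04 and -0.92) and *Prlr* (-0.79 and -0.68), higher in female kidneys, were below 0 on both. The Y-linked genes *Ddx3y*, *Eif2s3y* and *Uty* were measured, with ratios of opposite sign on the arrays, and *Kdm5d* was not. *Ddx3y* had a log2 signal of 10.58 in the knockout and 10.10 in the control on array 1, and 9.81 and 10.38 on array 2. Y-linked transcripts were thus read in the RNA of both genotypes. *Xist* was well above background in no channel, with log2 signals of 2.44 and 1.62 on array 1, and 1.57 and 1.36 on array 2. The part of sex or hormone state in the values of *Cyp4a12a*, *Cyp2j13* and the others was not tested. Markers of cells that could bring P450 transcripts with them also belong here. Of 6 hepatocyte markers 5 were measured, with 0 counted as changed, a median of -0.01 and *Apoa1* not measured, and their signals summed to 61367 (knockout) and 51992 (control) on array 1, and to 51776 and 44341 on array 2. The largest ratio among them was that of *Ttr* (1.34 and 0.47), and without *Ttr* the sums were 38524 and 42962 on array 1, and 36049 and 32964 on array 2, with no common direction. Of 6 markers of the adrenal cortex 2 were measured, with 0 counted as changed, and the steroid-producing enzymes *Cyp11a1*, *Cyp11b1*, *Cyp11b2* and *Hsd3b1* were not. Of 4 adipocyte, 5 endothelial and 5 measured leukocyte markers, 0 were counted as changed, with medians of -0.09, -0.08 and -0.03. Of 3 markers of the distal convoluted tubule, *Pvalb* (-1.98 and -1.52) and *Trpm6* (-1.23 and -1.58) were counted as lower and *Slc12a3* was not (-0.78 and 0.19), and of 3 markers each of the thick ascending limb and the collecting duct 0 were counted as changed.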

How the data were processed

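RNA from kidneys of knockout and control mice was measured on 2 two-colour Agilent arrays with exchanged dyes, and the genotype of each channel was taken from the labels. The authors deposited scanner files written by Feature Extraction, the Agilent software (10.7.3.1 by the file headers, 10.5.1.1 in the submitters' processing notes), whose processed signal intensity is corrected for background, spatial trend and dye within each array. Per the file headers, it also gives a log10 ratio of red over green. The series matrix, also deposited by the authors, gives log10 knockout over control, within 0.00492 of the scanner's ratio on array 1 and 0.00483 on array 2. Many dim spots carry a substitute value set by the software (7497 to 8305 spots a channel), so ratios near background rest on it.

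Processed signals were taken to log2, and ratios were turned to knockout over control. Spots that the software marked (non-uniform, or outlying among replicate spots) were dropped, spots of a probe were averaged, and the brightest probe of a gene name, by mean log2 signal over all channels, stood for the gene. All 78 names were matched to RefSeq (GRCm38.p6), 1 under another symbol. Probe positions and sequences are those of the files (mm9). With a single replicate of each genotype the genotypes were not tested against each other, and precision is limited by how few arrays there are. The alternatives, given with the limits, included normexp correction (offset of 50) with loess in limma 3.58.1 (R 4.3.3), and the methods' t-test (paired, threshold 0.1, mean fold above 2). Code was tested on simulated data and run in Python 3.11.15 with numpy 2.4.6, pandas 2.3.3 and Biopython 1.88.

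The members, gene lists and tests were chosen with earlier results of these data known. The rule for naming members took the 5 highest and 5 lowest by mean ratio, the 5 brightest of each family and any counted as changed (22 in all). Other members, among them *Cyp4a12a*, *Cyp2j5*, *Cyp4f13* and *Cyp2u1*, the repeat probes and single genes of the lists were named after their values were seen, as was the choice of members given with their signals.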

Additional observations from a re-analysis of the deposited data

How the results depend on the processing

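The counts of 0 higher and 0 lower P450 genes held under each of the alternatives with both arrays, which changed the background correction, the normalization, the deposited ratio used, the limit on dim probes, marked spots, the choice of probe or the rule for a call. For some of these the outcome was fixed in advance. Rules or limits stricter than the main ones could only give 0 again, and the deposited ratios hold the values already used. On array 2 alone (without replicate 1) 1 gene, *Cyp2d22*, was counted as higher, and on array 1 alone (without replicate 2) 1 gene, *Cyp4f13*, as lower, so leaving out an array gave 0 to 1 in each direction. The median of the measured P450 genes was between -0.0004 (array 1 alone) and 0.1093 (array 2 alone), which are also its lowest and highest values over all alternatives. With normexp and loess it was 0.05, and with *Cyp2u1* read by its probe without the repeat, an alternative chosen after seeing the data, it was 0.10. Of 220 values of the 22 genes named by rule, 210 moved by less than the SD of the gene's arrays and 10 moved by more, and 11 of 48 family medians moved by more than their own SD. Part of the 210 was fixed in advance and says nothing about robustness. The ratio of a single array always lies within that SD of the mean of both. The deposited ratios restate the same values, and the exchange of the *Cyp2u1* probe does not touch these 22 genes. Family 4 had a median of 0.33 on array 2 alone. The cause of these shifts was not tested. By the methods' t-test, which is paired over the arrays, 3 of the 52 P450 genes were under its threshold before the fold limit (984 of 19708 genes in all), 0 with the fold limit, and 0 after Benjamini-Hochberg adjustment. No further fit with a replicate block was made, since the labels give no replicate numbers and each ratio is already taken within an array. Both arrays share a slide and a scan, so neither could be used as a block. Signals near background limit the dim genes, *Cyp2c54*, *Cyp3a13* and *Cyp1a1* among them. For such genes a ratio nearer 0 with the normexp offset, or with no background correction, was largely fixed in advance and is no independent check.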
